A study of Homo sapiens with 8 samples.

Results

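The 8 genes described here take iron into the cell, store it, export it or control these steps: TFRC, SLC11A2, FTH1, FTL, SLC40A1, HAMP, ACO1 and IREB2. They were taken by symbol from a table of 63816 gene entries, in which each of the 8 symbols stands on 1 entry. RNA was sequenced from cells labelled Caco-2, an established line from a human colorectal adenocarcinoma, although most colon and enterocyte markers were absent or near 0 in these libraries, as detailed with the marker levels. In 4 samples the cells had been stably transfected with the empty plasmid pcDNA3.1, and in the other 4 with the same plasmid carrying SIGLEC12, the gene of Siglec-XII, a receptor of the Siglec family whose human form has lost the binding of sialic acids. All samples came from cells grown out under G418, and each group from its own transfection. What Siglec-XII does and what else set these selected populations apart therefore cannot be told apart. How many clones each group holds is not given in the sources used here, and the description of the series names fewer cultures than the 4 samples per group in the labels. The p-values therefore measure the spread between these samples, which may be technical. The comparison asks how the RNA of the iron genes stood in cells that express Siglec-XII.

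Cells take up iron mostly as transferrin, which binds the transferrin receptor encoded by TFRC and is carried into endosomes. There the metal is released, reduced and moved into the cytosol by the divalent metal transporter encoded by SLC11A2, which also brings dietary iron into enterocytes. Spare iron is kept in ferritin, a shell of heavy chains (FTH1) that oxidise it and light chains (FTL) that help form its mineral core. Ferroportin, encoded by SLC40A1, is the known iron exporter of mammalian cells and is removed from the membrane by the liver hormone hepcidin (HAMP). When iron is scarce, the RNA-binding proteins IRP1 (ACO1) and IRP2 (IREB2) bind a hairpin named the iron-responsive element. Bound in a 5′ UTR, they block translation, and bound in the 3′ UTR of TFRC, they protect the transcript from decay.

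The hairpins are shown because they set which step of each gene the IRPs act on, and RNA levels read only some of these steps. GENCODE transcripts on GRCh37 were searched on the strand of the transcript only. The pattern was a C, a stem of 5 base pairs that may include G-T pairs, and the loop CAGTGN between its arms. Whether the C was unpaired was not checked. Capitals mark the match from that C to the end of the stem, and lower case marks its flanks. In TFRC the 3′ UTR held 4 matches, on the minus strand at chr3:195777334-195777362, chr3:195777381-195777409, chr3:195777446-195777474 and chr3:195777850-195777878, each inside an exon. The 5′ UTRs of both ferritin genes and of SLC40A1 held 1 each, at chr11:61735046-61735074 (FTH1, minus strand), chr19:49468592-49468620 (FTL, plus strand) and chr2:190445387-190445415 (SLC40A1, minus strand). Allowing 1 extra base in the 3′ arm added a match in the 3′ UTR of SLC11A2 at chr12:51382051-51382080 on the minus strand.
TFRC, at 195777334: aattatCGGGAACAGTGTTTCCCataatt
TFRC, at 195777381: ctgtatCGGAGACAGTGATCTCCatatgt
TFRC, at 195777446: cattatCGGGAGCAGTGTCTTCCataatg
TFRC, at 195777850: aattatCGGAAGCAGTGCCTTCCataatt
FTH1: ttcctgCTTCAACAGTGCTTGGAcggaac
FTL: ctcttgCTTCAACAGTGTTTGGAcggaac
SLC40A1: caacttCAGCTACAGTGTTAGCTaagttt
SLC11A2: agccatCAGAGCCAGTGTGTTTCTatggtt

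The form without the extra base was found in 18 of 18455 canonical 5′ UTRs (0.0975%) and in 121 of 19046 canonical 3′ UTRs (0.635%), and with the extra base allowed in 0.266% and 1.81%. The looser form also matched in the 3′ UTR of IREB2, at chr15:78793311-78793340 on the plus strand. No match was found in the UTRs of ACO1 or HAMP. A match is a stretch of letters, and binding was not measured.

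The transgene followed the group labels, while the markers of both colon and trophoblast were mixed. SIGLEC12 lay between 0.040 and 0.122 TPM (transcripts per 1000000, a level corrected for transcript length) with the empty vector and between 1582 and 1734 TPM with SIGLEC12, a difference of 10.59 on the log2(TPM + 1) scale (two-sided exact permutation test, p = 0.0286, which is the floor of a design with 4 libraries a group). The values of every library sum to 1000000 TPM, so the depth is unknown. Mitochondrially encoded RNA made up 6.67 to 11.2% of the TPM and was highest in empty vector replicate 1. Of 14 colon and enterocyte markers, 3 (CDX1, CDX2 and SLC15A1) passed the filter on low values, 9 stayed under 1 TPM in every library, and KRT20, FABP1 and SI were at 0 throughout. The intestinal transcription factor HNF4A reached at most 0.174 TPM and the intestinal cadherin CDH17 at most 0.333 TPM. The 14 colon and enterocyte markers summed to 164 to 187 TPM with the empty vector and 192 to 217 TPM with SIGLEC12. Most of this came from CDX1 (means of 139 and 156 TPM) and CDX2 (37.3 and 43.9 TPM). All 5 markers of simple epithelium passed, with 8257 to 9230 TPM summed against 9840 to 10217. Of 12 trophoblast markers 8 passed, and the list summed to 991 to 1087 TPM against 982 to 1051. GATA3, TFAP2C, HSD3B1 and SIGLEC6 each stood above the colon marker CDX2 in group means, and SIGLEC6 below CDX1. CYP19A1 averaged 4.25 TPM with the empty vector and 2.92 with SIGLEC12, CGA 0.982 and 0.588, ERVW-1 1.40 and 1.40, and ERVFRD-1 1.33 and 1.12. CGB3, CGB5, GCM1 and LEP stayed under 1 TPM in every library. The trophoblast list thus summed higher than the colon list in every library, with most of its sum from GATA3, HSD3B1, TFAP2C and SIGLEC6. The lists were chosen with earlier results known and each sum rests on a few abundant genes, so the sums settle no identity. The cells are called by their label here with their identity not tested further. Of 6 hepatocyte markers 0 passed, and macrophage markers summed to at most 6.09 TPM. The epithelial and colon marker sums were thus higher in each SIGLEC12 library than in each empty vector library, as were several iron genes below, and their part in those results was not tested.

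No iron gene passed the test of the difference between the groups. Of the 8 genes, 7 had at least 1 TPM in at least 4 samples and were tested, and 0 of these 7 had an adjusted p under 0.05 (limma on log2(TPM + 1), Benjamini-Hochberg over all 15590 entries tested). Over all entries 101 did, or 0.648%, with 0.34% higher and 0.308% lower. At an unadjusted p under 0.05, 4 of the 7 iron genes (TFRC, FTH1, FTL and IREB2) stood higher and 0 lower, where 16.5% of all entries passed that mark in either direction and 13.9% as higher. The same 4 genes were those whose groups did not overlap, where 10.8% of all entries had groups that did not overlap, 9.17% with higher and 1.68% with lower values. The log2 fold change was above 0 in 6 of the 7 genes, beside 68.1% of all entries, and its median was 0.14, beside 0.07 over all entries.

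The levels ran in the same order in both groups for the most abundant genes. FTH1 was far above all others, at rank 3 to 10 of the whole table in the individual libraries, followed by FTL at rank 139 to 173 and TFRC at rank 546 to 737. IREB2 (28.2 to 40.1 TPM over the 8 libraries) and SLC11A2 (30.8 to 38.2 TPM) overlapped, and so did ACO1 (12.2 to 14.6 TPM) and SLC40A1 (8.59 to 14.1 TPM). HAMP came last of the 8, at most 0.122 TPM. These orders rest on TPM, which depends on the transcript lengths the quantifier assigned.

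**Figure D1:**
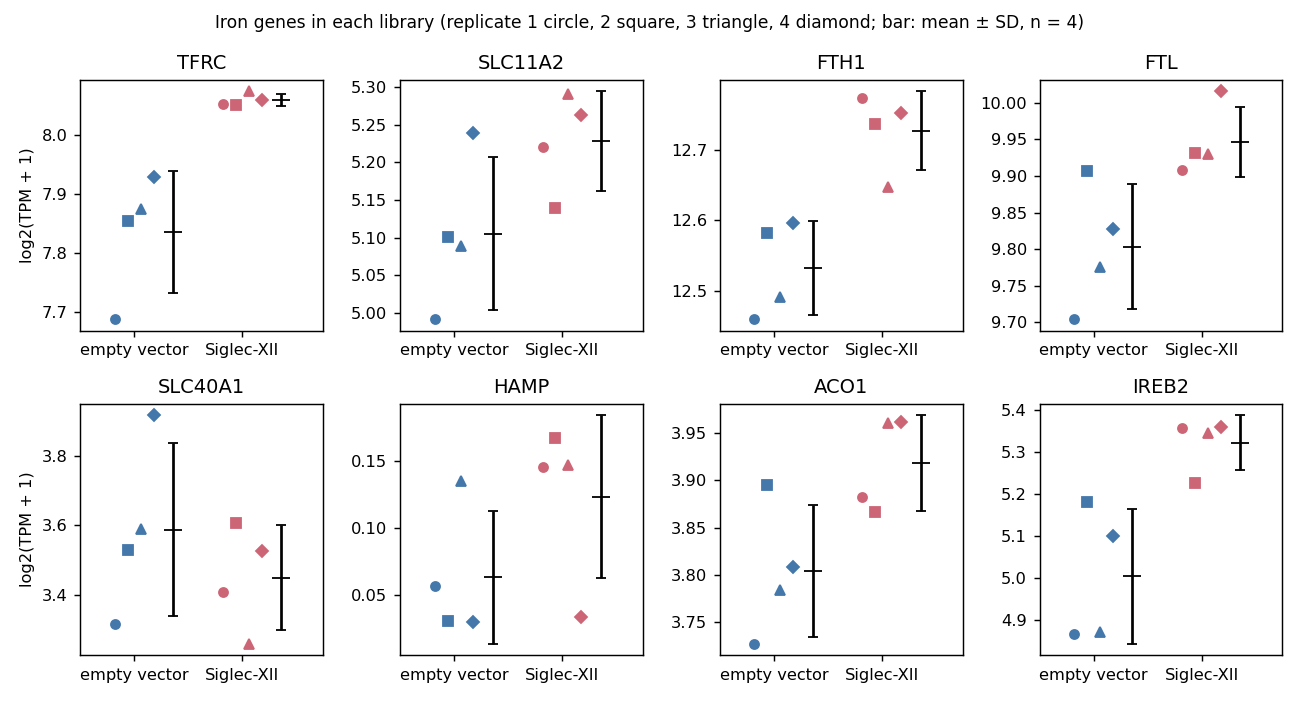
Level of each of the 8 iron genes as log2(TPM + 1) on a vertical axis of its own (not starting at 0), with 4 empty vector libraries in blue, 4 Siglec-XII libraries in red, and the mean ± SD in black. TFRC, FTH1, FTL and IREB2 have no overlap between groups, SLC40A1 spreads most among the genes that passed the filter, and HAMP stays under 0.17 on this scale.

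Among the uptake genes, TFRC (chr3:195739382-195809024, minus strand, GRCh37) was measured at 205, 231, 234 and 243 TPM in empty vector replicates 1 to 4 and at 265, 264, 269 and 266 TPM in SIGLEC12 replicates 1 to 4. All 4 SIGLEC12 libraries lay above the highest empty vector library, and they were close to each other while empty vector replicate 1 sat below the rest of its group. On the log2 scale the mean went from 7.84 ± 0.10 to 8.06 ± 0.01 (SD, n = 4 each). The fold change was 1.17 (95% interval 1.08 to 1.27; log2 0.22, SE 0.05), above that of 87.2% of the tested entries, with a limma adjusted p of 0.105. The difference in the transferrin receptor transcript was thus larger than the SD of either group, yet not past the threshold set over the table.

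SLC11A2 (chr12:51373184-51422349, minus strand), the divalent metal transporter, was at 30.8, 33.3, 33.0 and 36.8 TPM with the empty vector and at 36.3, 34.2, 38.2 and 37.4 TPM with SIGLEC12. The groups overlapped, since empty vector replicate 4 stood above SIGLEC12 replicates 1 and 2. The log2 fold change was 0.12 (SE 0.06, 95% interval -0.02 to 0.27, adjusted p = 0.372). TFRC stood 6.81 ± 0.22 times as high as SLC11A2 in TPM with the empty vector and 7.29 ± 0.31 times with SIGLEC12 (SD, n = 4), with overlapping ranges.

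Of the storage genes, FTH1 (chr11:61727190-61735106, minus strand) supplied 5633, 6130, 5755 and 6192 TPM in the empty vector libraries and 7004, 6825, 6413 and 6898 TPM in the SIGLEC12 libraries. The groups did not overlap, with SIGLEC12 replicate 3 nearest to the controls. The mean log2 level was 12.53 ± 0.07 against 12.73 ± 0.06 (SD, n = 4), a fold change of 1.14 (95% interval 1.05 to 1.24; log2 0.20, SE 0.05, adjusted p = 0.136). The 100 most abundant entries, with FTH1 among them, had a median log2 fold change of -0.10, and 23 of them were above 0. In that group 4 entries were at or above the fold change of FTH1: FTH1 itself, the keratins KRT8 and KRT18, and the glucose transporter gene SLC2A3, which were named after their values were seen.

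FTL (chr19:49468566-49470136, plus strand), the light chain, was at 833, 959, 875 and 908 TPM with the empty vector and 960, 976, 974 and 1034 TPM with SIGLEC12. The groups were separated by only 0.001 on the log2 scale, between empty vector replicate 2 and SIGLEC12 replicate 1. The log2 fold change was 0.14 (SE 0.05, 95% interval 0.03 to 0.26, adjusted p = 0.221). The heavy chain had 6.64 ± 0.19 times the TPM of the light chain with the empty vector and 6.89 ± 0.33 times with SIGLEC12 (SD, n = 4), and these ranges overlapped.

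Both ferritin genes have processed pseudogenes that resemble their mRNA, so reads may be divided among them. The table held 26 FTH1 pseudogene entries, of which 21 were above 0 in some library, and together they took 0.180 to 0.271% of the FTH1 sum. For FTL there were 16 entries, 7 of them above 0, with 0.363 to 0.922% of the sum. With the pseudogenes added, FTH1 was higher with SIGLEC12 by 0.20 on the log2 scale (two-sided exact permutation p = 0.0286, 0.0571 adjusted over the 2 sums) and FTL by 0.14 (exact p = 0.0571, adjusted 0.0571), the groups of FTL now overlapping. The sums thus kept the size of the differences. FTH1 alone already separated the groups and its pseudogenes took little of the sum, so the exact p of its sum repeats that separation. It is the floor of the design and adds no support to the limma result for FTH1.

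Single pseudogene entries were low. FTH1P3, FTH1P7, FTH1P8, FTH1P10, FTH1P11 and FTH1P16 averaged between 0.823 and 1.90 TPM in each group, and FTLP14 averaged 5.61 ± 1.84 TPM against 4.56 ± 1.74 (SD, n = 4). FTH1P2, whose 2 entries hold identical values, was at 0.690 ± 0.091 TPM with the empty vector and 1.94 ± 0.58 TPM with SIGLEC12. It passed the filter of 1 TPM only through the SIGLEC12 libraries, so no test of its difference is given. As the reads of FTH1P2 can come from FTH1, its value is uncertain.

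SLC40A1 (chr2:190425316-190448484, minus strand), the exporter ferroportin, was the tested gene with a log2 fold change under 0. It was at 8.97, 10.6, 11.04 and 14.1 TPM with the empty vector and 9.62, 11.2, 8.59 and 10.5 TPM with SIGLEC12. The groups overlapped widely, and the highest and the lowest value of the 8 came from empty vector replicate 4 and SIGLEC12 replicate 3. The log2 means were 3.59 ± 0.25 and 3.45 ± 0.15 (SD, n = 4), with a log2 fold change of -0.14 (SE 0.13, 95% interval -0.43 to 0.16, adjusted p = 0.641), which came to -0.03 without empty vector replicate 4. A lower or a higher level of ferroportin RNA was thus not resolved.

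The hormone gene HAMP (chr19:35771619-35776046, plus strand) was barely detected, at 0.040, 0.022, 0.098 and 0.021 TPM with the empty vector and 0.106, 0.122, 0.107 and 0.024 TPM with SIGLEC12. It did not pass the filter and was not tested. At such levels the values overlap and no direction was read from them.

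**Figure D2:**
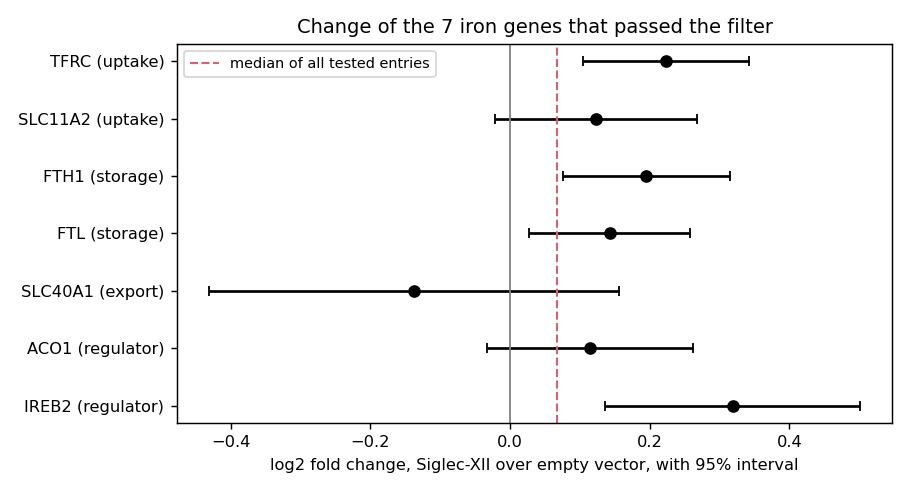
Log2 fold change (SIGLEC12 over empty vector, horizontal axis) of the 7 tested iron genes, each with its 95% interval from limma, beside 0 (grey line) and the median of all tested entries (dashed line, 0.07). The intervals of TFRC, FTH1, FTL and IREB2 lie above 0, those of SLC11A2, ACO1 and SLC40A1 span it, and those of TFRC, FTH1 and IREB2 also lie above the median.

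Of the regulators, IREB2 (chr15:78729773-78793795, plus strand), which encodes IRP2, had the highest fold change of the 7. It was at 28.2, 35.3, 28.3 and 33.3 TPM with the empty vector and 40.0, 36.4, 39.7 and 40.1 TPM with SIGLEC12. The groups did not overlap, with empty vector replicate 2 and SIGLEC12 replicate 2 closest to each other. The fold change was 1.25 (95% interval 1.10 to 1.41; log2 0.32, SE 0.08, adjusted p = 0.115), above that of 94.7% of the tested entries.

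ACO1 (chr9:32384601-32454767, plus strand) encodes IRP1, which doubles as the cytosolic aconitase when it holds an iron-sulfur cluster. It was at 12.2, 13.9, 12.8 and 13.01 TPM with the empty vector and 13.7, 13.6, 14.6 and 14.6 TPM with SIGLEC12, and empty vector replicate 2 overlapped the SIGLEC12 group. The log2 fold change was 0.11 (SE 0.07, 95% interval -0.03 to 0.26, adjusted p = 0.413). The TPM of IREB2 over that of ACO1 was 2.40 ± 0.17 with the empty vector and 2.77 ± 0.10 with SIGLEC12 (SD, n = 4), with ranges of 2.21 to 2.56 and 2.68 to 2.91 that did not overlap. This is a description without a test, and no share over other pairs of genes stands beside it. IREB2 alone also separated the groups, so the ratio is not a result apart from that of IREB2.

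The receptor and the store differed between the groups by a like amount. The TPM of TFRC over that of FTH1 was 0.0385 ± 0.0018 with the empty vector and 0.0392 ± 0.0018 with SIGLEC12 (SD, n = 4), with ranges of 0.0364 to 0.0406 and 0.0378 to 0.0419. The TPM of TFRC over that of SLC40A1, uptake over export, was 20.8 ± 2.5 against 26.9 ± 3.3, and its ranges (17.2 to 22.9 and 23.7 to 31.3) did not overlap. TFRC alone also separated the groups while SLC40A1 overlapped, so the separation of this ratio is not a result apart from that of TFRC. Both ratios cancel what scales all genes of a library together. They are given without a test and without the share over other pairs of genes.

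**Figure D3:**
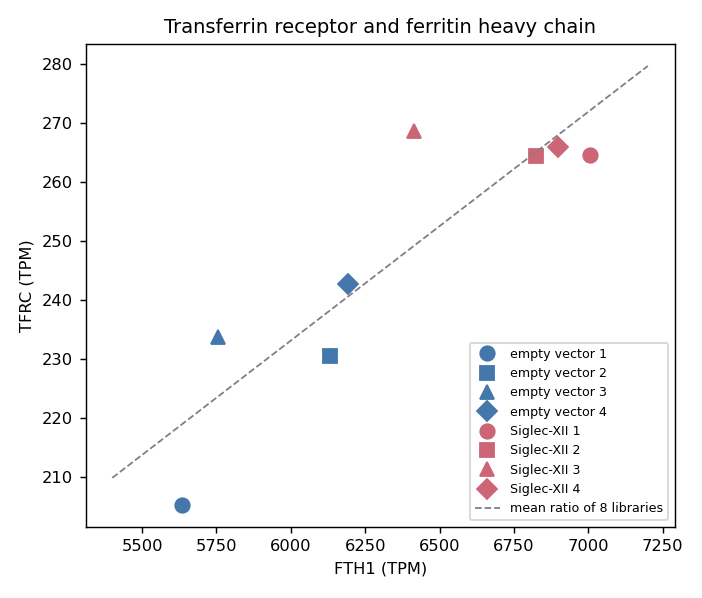
TFRC (vertical axis, TPM) against FTH1 (horizontal axis, TPM) in the 8 libraries, with the dashed line at their mean ratio and neither axis starting at 0. The libraries with SIGLEC12 lie higher on both axes, between 264 and 269 TPM of TFRC, and both groups lie on either side of the line.

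Most iron genes were high or low in the same libraries. Empty vector replicate 1 was the lowest of its group for all 7 tested genes, and it was the lowest for 41.8% of all tested entries. Over the 8 libraries Pearson's r was 0.89 between TFRC and FTH1, 0.87 between FTH1 and FTL, and 0.91 between ACO1 and IREB2. SLC40A1 had r between -0.22 and 0.12 with the other 6. All pairs share the same 8 libraries, their scaling to a common sum and the difference between groups, so these values are a description. With each group's mean removed, the r of TFRC and FTH1 was 0.53 and that of ACO1 and IREB2 0.81. SLC40A1 then had r of 0.72 with TFRC, 0.71 with FTH1, 0.49 with SLC11A2, 0.43 with FTL, 0.27 with IREB2 and 0.08 with ACO1. These r pool the deviations of both groups and do not hold for each group alone. Among the SIGLEC12 libraries, SLC40A1 was highest in replicate 2, where TFRC and SLC11A2 were lowest. It was lowest in replicate 3, where TFRC and SLC11A2 were highest but FTH1 was also lowest.

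**Figure D4:**
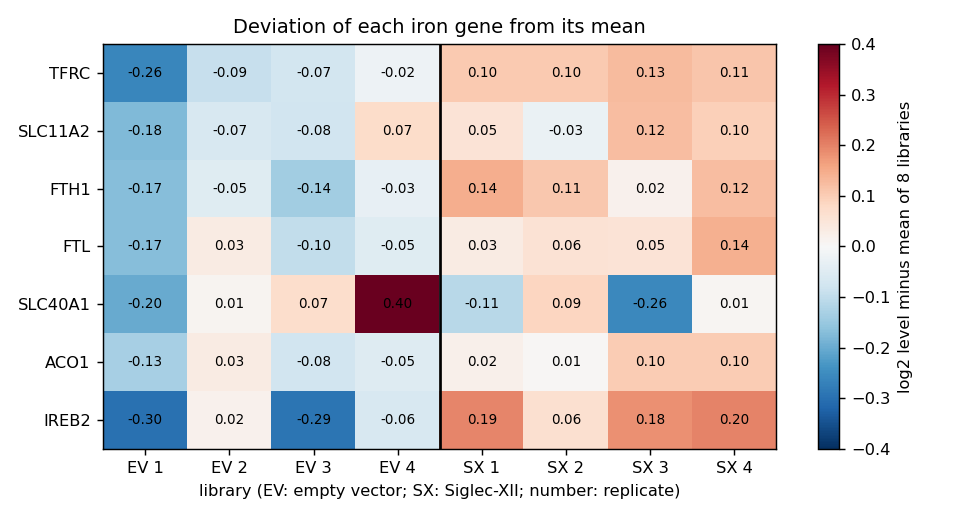
Log2 level of the 7 tested iron genes (rows) in each library (columns) minus the gene's mean over the 8 libraries, with red above and blue below the mean. The column of empty vector replicate 1 is below the mean for every gene, from -0.13 (ACO1) to -0.30 (IREB2), and the row of SLC40A1 reaches 0.40 in empty vector replicate 4.

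The protein-coding entries whose pattern over the 8 libraries was most like that of each iron gene were picked by Pearson's r. They are the highest of 12081 tested protein-coding entries over only 8 libraries, so their high r is in part set by this choice. Shared regulation was not tested. For TFRC these were BZW1 (r = 0.98), MRS2 (0.98), a mitochondrial magnesium channel gene, and CDK12 (0.98). For FTH1 they were DDI2 (0.98), CDK18 (0.98) and the tetraspanin gene CD63 (0.97), and for FTL the peroxiredoxin gene PRDX6 (0.99), the E-cadherin gene CDH1 (0.99) and CORO1C (0.99). Of all these likest entries, DDI2 alone was past the threshold (log2 fold change 0.36, limma adjusted p = 0.0364). The likest to SLC11A2 were RBBP4 (0.98), ATMIN (0.97) and TRAM1 (0.97), and to SLC40A1 IDUA (0.96), RHPN1 (0.96) and SH3GLB2 (0.96). ACO1 had LRIG3 (0.98), MUL1 (0.98) and SLC30A7 (0.98), and IREB2 had SDC3 (0.99), PPARA (0.98) and GABPB1 (0.98).

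The wider iron pathway was described from 9 lists by role with 95 further genes, all in the table, of which 82 were tested and 0 passed the adjusted threshold. At an unadjusted p under 0.05, 19 of the 82 (23.2%) stood higher and 0 lower, beside 13.9% and 2.61% of all entries. The groups did not overlap for 14 of the 82 (17.1%), all higher, beside 9.17% of all entries. The log2 fold change was above 0 in 63 and below in 19, where 68.1% of all entries were above 0. Its median was 0.08, beside 0.07 over all entries.

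In the transferrin cycle and its reductases, 8 of 13 genes were tested and 0 passed, with a median log2 fold change of 0.08. MCOLN1, an endolysosomal cation channel, was at 0.28 (adjusted p = 0.204) and SLC39A14, a carrier of iron not bound to transferrin, at 0.19 (adjusted p = 0.226). TFR2, a second transferrin receptor that senses iron, was at -0.01, with means of 1.44 and 1.35 TPM, and SLC22A17, a receptor for lipocalin, at -0.07. TF, STEAP1, STEAP2, STEAP4 and LCN2 were under 1 TPM in every library, so transferrin itself was next to absent from these transcriptomes.

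Of the genes that load or turn over ferritin, 6 of 7 were tested and 0 passed. The chaperones PCBP1 and PCBP2, which hand iron to ferritin, were higher in every SIGLEC12 library than in every empty vector library, with log2 fold changes of 0.15 (adjusted p = 0.189) and 0.13 (adjusted p = 0.211). GLRX3 was at 0.02 and BOLA2, which has a near-identical copy that can share its reads, at -0.11. The mitochondrial ferritin gene FTMT was at 0 in every library. Of 3 ferroxidases, which oxidise the iron that ferroportin releases, HEPH and CP were under 1 TPM throughout and HEPHL1 was at -0.11 (adjusted p = 0.681).

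Among genes that control the IRPs or carry an iron-responsive element themselves, 7 of 8 were tested and 0 passed, with a median of 0.05. CDC14A, a phosphatase gene whose 3′ UTR held a match to the hairpin, was at 0.30 (13.3 against 16.6 TPM, adjusted p = 0.197). FBXL5, the ubiquitin ligase subunit that removes the IRPs when iron is plentiful, was at -0.04 (adjusted p = 0.854), and its partner SKP1 at -0.03. ALAS2, the erythroid enzyme of heme synthesis, was under 1 TPM in every library.

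Of the hepcidin control genes, 11 of 15 were tested and 0 passed. All 11 had a log2 fold change above 0, beside 68.1% of all entries, with a median of 0.20. SMAD7, an inhibitor of the BMP and TGF-β pathways, was at 1.70 ± 0.18 against 2.31 ± 0.26 (log2 level, SD, n = 4), or 2.26 against 4.02 TPM, and its log2 fold change was 0.61 (SE 0.15, adjusted p = 0.114). ERFE, which encodes a hormone that lowers hepcidin, was at 0.39 (adjusted p = 0.216), from 1.64 to 2.48 TPM. SMAD4 and the BMP target ID1 had the lowest values of the list, 0.06 and 0.07. HJV was at 0 and TMPRSS6, BMP6 and SMAD6 were under 1 TPM throughout.

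The iron-sulfur cluster genes were close to the median of the table. All 23 mitochondrial genes were tested and 0 passed, with 14 above 0, 9 below and a median of 0.07. Among their extremes were NUBPL, an assembly factor of respiratory complex I, at 0.36 (9.17 against 11.97 TPM, adjusted p = 0.114), IBA57 at 0.30 and the mitochondrial iron importer SLC25A28 (mitoferrin-2) at -0.20 (adjusted p = 0.308). Of 9 cytosolic assembly genes 0 passed, with a median of 0.04, NUBP2 at 0.28 (adjusted p = 0.181) and CIAPIN1 at 0.26 (adjusted p = 0.291) at the upper end, and CIAO2A at -0.10 and NDOR1 at -0.03 at the lower.

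In heme synthesis 0 of 8 genes passed, with a median of 0.05. The housekeeping entry enzyme ALAS1 was at 0.17 (36.3 against 41.0 TPM, adjusted p = 0.194), PPOX at 0.39 (adjusted p = 0.351), UROS at -0.01, and FECH, which inserts the iron, at -0.14 (adjusted p = 0.555). In heme transport and degradation all 9 genes were tested and 0 passed. All 9 had a log2 fold change above 0, beside 68.1% of all entries, with a median of 0.20. HMOX1, the inducible heme oxygenase that frees iron from heme, went from 5.96 ± 0.15 to 6.34 ± 0.11 (log2 level, SD, n = 4), or 61.5 to 80.2 TPM, without overlap. Its log2 fold change was 0.38 (SE 0.08, adjusted p = 0.089), and without empty vector replicate 2 it was 0.45 with a limma adjusted p of 0.0218. HMOX1 passed in no other of the 19 alternatives, and leaving out that library also raised the entries called over the table from 101 to 159. The constitutive HMOX2 was at 0.06 and the heme exporter gene FLVCR1 at 0.03, while FLVCR2 was at 0.30 with overlapping groups.

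**Figure D5:**
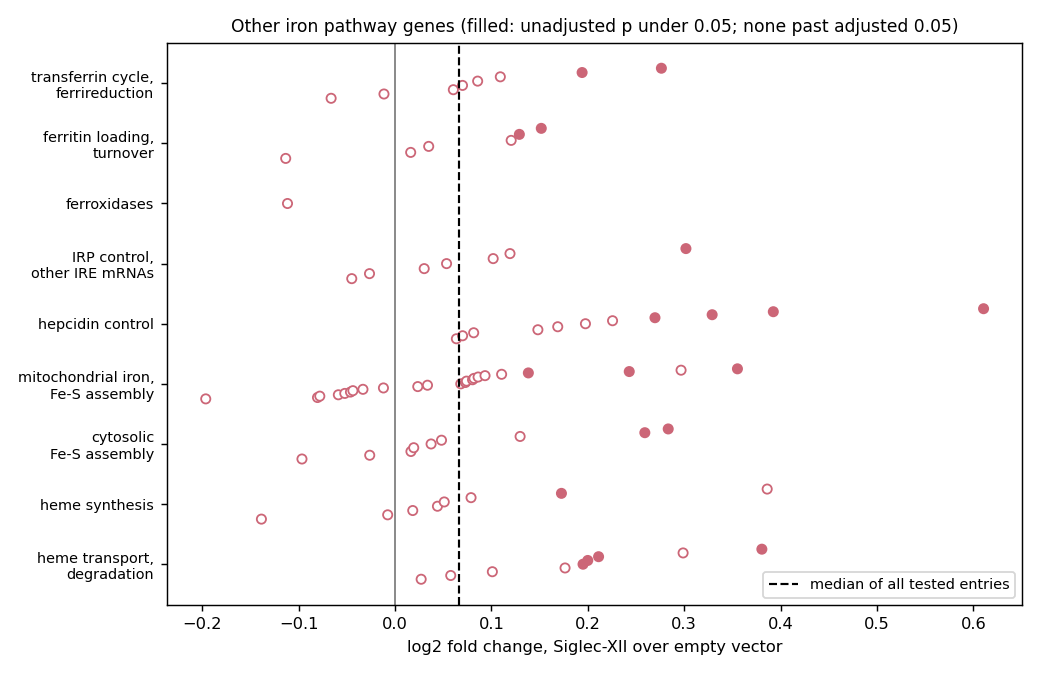
Log2 fold change (SIGLEC12 over empty vector, horizontal axis) of the 82 tested iron pathway genes outside the 8, by role (rows), filled where the unadjusted limma p was under 0.05, with the median of all tested entries as a dashed line. All filled points lie to the right of 0. Every gene of hepcidin control and of heme transport and degradation has a value above 0, as have 68.1% of all tested entries.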

How the data were processed

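The authors quantified the libraries with kallisto (version 0.45.0 in the submitters' processing notes) on an hg19 reference and deposited 1 table of log2(TPM + 1) per gene entry, which was used as it stands. The labels name a stranded total RNA kit and the study's methods an mRNA kit. These values are not counts, so no count test was run, and TPM keeps no depth. Both groups hold 4 samples, taken from the labels, and no column lacked a sample.

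Entries with at least 1 TPM in at least 4 samples (15590) were fitted with limma 3.58.1 in R 4.3.3 (lmFit, eBayes with trend, two-sided, pseudocount 1) and adjusted by Benjamini-Hochberg over all of them, with a threshold of 0.05. The script was tested on simulated data with 200 changed entries. The study's methods name a count model, which log2 values cannot be given to. A fold change on the log2(TPM + 1) scale understates that of low genes. Ratios are of TPM. SIGLEC12 and the ferritin sums were compared by exact permutation in scipy 1.17.1. Figures were drawn with matplotlib 3.10.9. Positions and transcripts are from GENCODE on GRCh37, which matched 55485 of the 63816 entries by gene identifier, and the hairpins were searched in its annotated UTRs.

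The 8 genes and all lists were chosen with earlier results of these data known. Named genes are the 8, SIGLEC12, the 2 highest and 2 lowest fold changes of each list, any with an adjusted p under 0.05, list genes under 1 TPM throughout, ferritin pseudogenes with a mean of at least 1 TPM, and the 3 protein-coding entries with the highest r to each gene. Some genes that this rule names are not reported here. Alternatives covered the pseudocount, the filter, scaling, the trend, array weights, transcript length, pseudogenes, a replicate block and each library left out.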

Additional observations from a re-analysis of the deposited data

Results flagged for a closer look

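Of 82 groups of 4 libraries examined among the genes named, 6 held a library far from the other 3 by Dixon's test, where chance gives about 1 in 20. IREB2 was at a log2 level of 5.23 in SIGLEC12 replicate 2, with the other 3 between 5.35 and 5.36. HAMP was at 0.034 in SIGLEC12 replicate 4, with the others between 0.15 and 0.17, all values under the filter. TFR2 was at 1.95 in empty vector replicate 4 (others 0.87 to 1.04) and at 0.73 in SIGLEC12 replicate 2 (others 1.32 to 1.42). PCBP1 was at 8.50 in empty vector replicate 1 (others 8.67 to 8.68), the library that was lowest of its group for all 7 tested iron genes. HMOX2 was at 4.97 in empty vector replicate 2 (others 4.77 to 4.80).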

How the results depend on the processing

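Under all 19 alternatives 0 of the 7 tested iron genes passed the adjusted threshold and none changed sign. Their lowest adjusted p was 0.0614 (IREB2 without empty vector replicate 2). The log2 fold change ran from 0.13 to 0.25 for TFRC, 0.13 to 0.28 for FTH1, 0.08 to 0.18 for FTL, 0.22 to 0.38 for IREB2, 0.04 to 0.17 for SLC11A2, 0.004 to 0.15 for ACO1 and -0.23 to -0.03 for SLC40A1, and the lowest values of TFRC, IREB2, SLC11A2 and ACO1 came with the trend on transcript length removed. The median log2 fold change of protein-coding entries was 0.02 for transcripts under 1500 nt and 0.11 for those of 4500 nt or more.

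The 101 entries called over the table became 51 with no filter, 54 with no mean-variance trend, and 49 (without empty vector replicate 3) to 159 (without empty vector replicate 2) with 1 library left out, where every library moved the count by more than 1.5 times. The cause was not tested. Of the 101, 52.5% stood higher, a share that was 32.6% after quantile normalization, 29.3% with equal upper quartiles, 33.8% without the most abundant entries and 27.3% with the length trend removed. The called genes of the iron pathway lists numbered 0 to 1 with 1 library left out, the 1 being HMOX1 without empty vector replicate 2. The difference of SIGLEC12 was 10.57 to 10.62, and that of FTH1 with its pseudogenes 0.17 to 0.22, with 1 library left out, where 3 against 4 samples cannot give an exact p under 0.0571. The replicate numbers did not pair the samples: deviations from the group means correlated at 0.04, 0.03, -0.07 and 0.06 between samples of the same number, and not every sample correlated best with its own. With a replicate block 69 entries were called, 26.1% of them higher, and 0 iron genes. Depth is unknown, and the number of samples limits the precision.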
